A study of Homo sapiens with 15 samples.

Results

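The glial cell line-derived neurotrophic factor (GDNF) family was followed in HEK293T cells, a human embryonic kidney cell line, through 10 of the 58735 genes that the deposited tables list. The members were the GDNF family receptor alpha genes GFRA1, GFRA2, GFRA3 and GFRA4, the signalling receptors RET and NCAM1, and the ligand genes GDNF, NRTN, ARTN and PSPN. They were chosen by name, and because GFRA3 was nearly silent in the control cells and in no other group. The levels of GFRA3 against that control are therefore a description here and carry no test. RNA sequencing covered 15 libraries in 5 groups, with 3 culture wells per group. Non-target cells received the lentiviral CRISPR vector (lentiCRISPRv2) with a guide that has no target, and their label gives the genotype as WT. In the MLPH-CKO, C9orf89-CKO, MAGI2-CKO and RHBDD2-CKO cells, given here in the order of their GFRA3 levels, the same kind of vector carried a guide against the gene of that name, and all lines were established by limiting dilution. Each group is thus a single line, and its 3 wells measure culture and library spread, not the spread between independent clones, so a difference between clones and an effect of the knocked out gene cannot be told apart.

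Ligands of this family are secreted proteins related to transforming growth factor beta. Each ligand binds a GFRα protein that is held to the membrane by a lipid anchor, and the pair then engages RET, a receptor tyrosine kinase that signals through the MAP kinase, PI3K and phospholipase C routes. GDNF prefers GFRα1, neurturin (NRTN) prefers GFRα2, artemin (ARTN) prefers GFRα3 and persephin (PSPN) prefers GFRα4. NCAM1, a neural adhesion molecule, is an alternative signalling partner of GFRα1. In the embryonic kidney, GDNF from the mesenchyme acts on RET and GFRα1 of the ureteric bud, while GFRα3 is best known from sensory and sympathetic neurons.

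The values were fragments per kilobase of exon, scaled to the size of the library (FPKM). They stood for 15517856 to 19489918 fragments per library, with a median of 16265355 in Non-target, 18488218 in MLPH-CKO, 16429553 in C9orf89-CKO cells, 19423812 in MAGI2-CKO and 16209432 in RHBDD2-CKO cells. The wells numbered 1 stood apart in every group. Between wells 2 and 3 the chi-square of the fragments was 2.40 to 6.54 per gene, and between well 1 and either of them it was 14.6 to 24.8. Results were therefore also computed from wells 2 and 3 alone.

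The targeted genes were examined first. C9orf89, listed under its symbol CARD19, was lower in C9orf89-CKO cells (4.32 ± 0.0421 FPKM, SD, n = 3) than in Non-target cells (6.56 ± 1.04), with a log2 difference of −0.58 (SE 0.10, adjusted p = 0.000977, limma). It was also lower in RHBDD2-CKO cells, where it was not targeted (4.79 ± 0.339 FPKM, log2 difference −0.44, adjusted p = 0.00489, limma). RHBDD2 was lower in RHBDD2-CKO cells (12.4 ± 1.18 FPKM) than in Non-target cells (33.5 ± 5.50), with a log2 difference of −1.42 (SE 0.14, adjusted p = 7.56e-06, limma). The same gene was also lower in MAGI2-CKO cells (13.8 ± 2.15 FPKM, log2 difference −1.27, adjusted p = 1.55e-05, limma). MAGI2 stood at 0.115 ± 0.0108 FPKM in Non-target and at 0.0680 ± 0.0195 in MAGI2-CKO cells, under the limit for a test, and between 0.0718 and 0.0838 on average in the other clones. MLPH had 0 fragments in all 15 libraries, which allows up to 3 fragments in each, so its RNA checks nothing. The paper checked protein in its HEK293T clones. It reports loss of C9orf89 and RHBDD2 by western blot, and of MAGI2 and MLPH by flow cytometry.

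The labelled cell type was compared with markers of HEK293T cells (NEFL, NEFM, VIM, LHX1 and PAX2). VIM, an intermediate filament, was the most abundant of them in every group. The summed level of the 5 markers was 92.9 FPKM in Non-target, 142.6 in MLPH-CKO, 114.1 in C9orf89-CKO cells, 96.3 in MAGI2-CKO and 50.5 in RHBDD2-CKO cells. The neurofilament genes went against the label in some clones. NEFM averaged 27.2 FPKM in Non-target and 0.0274 in MAGI2-CKO cells, where 1 or more libraries had 0 fragments. In RHBDD2-CKO cells both genes were low, with NEFM at 1.34 FPKM and NEFL at 0.984 against 18.8 in Non-target.

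GFRA3 is best known from peripheral neurons, so markers of sensory neurons and Schwann cells were examined as well. Of the sensory neuron markers, CALCA had at most 2 fragments in any library, while ISL1, a transcription factor also made outside neurons, was the most abundant with 8.76 FPKM in Non-target cells. ISL1 fell to 7.14 FPKM in C9orf89-CKO (adjusted p = 0.0407, limma), 7.16 in MAGI2-CKO (0.0335) and 4.65 in RHBDD2-CKO cells (1.83e-05), the first of these in 8 and the second in 11 of 15 fits without 1 library, and stood at 8.64 in MLPH-CKO cells. TRPV1, a heat-gated channel of pain neurons, rose from 1.02 FPKM in Non-target to 1.36 in MLPH-CKO (adjusted p = 0.0198, limma; past the threshold in 12 of 15 such fits), 1.78 in C9orf89-CKO (0.000344) and 1.49 in MAGI2-CKO cells (0.00310), and stood at 1.20 in RHBDD2-CKO cells. PRPH, a filament protein of peripheral neurons, rose in all 4 clones, from 0.141 FPKM in Non-target to 0.805 in MLPH-CKO, 0.425 in C9orf89-CKO cells, 0.358 in MAGI2-CKO and 0.565 in RHBDD2-CKO cells. The summed sensory neuron list was 9.92 FPKM in Non-target, 10.80 in MLPH-CKO, 9.36 in C9orf89-CKO cells, 9.01 in MAGI2-CKO and 6.41 in RHBDD2-CKO cells. Of the Schwann cell markers, SOX10 and S100B each had at most 3 fragments in any library. ERBB3, the most abundant of that list, rose in all 4 clones, from 0.356 FPKM in Non-target to 1.35 in MLPH-CKO, 1.01 in C9orf89-CKO cells, 0.597 in MAGI2-CKO and 1.76 in RHBDD2-CKO cells, and it set most of the summed Schwann list (0.527, 1.54, 1.16, 0.892 and 2.02 FPKM in the same order, Non-target first). The part of PRPH and ERBB3, and of the cells they mark, in the GFRA3 levels was not tested. The myeloid list summed to 0.426 FPKM in Non-target and to between 0.217 and 0.344 in the clones, none of its 5 genes averaged 0.5 FPKM, and PTPRC, the pan-leukocyte marker, had at most 1 fragment in any library. The mesenchymal list summed to 3.15 FPKM in Non-target and to between 3.56 and 4.90 in the clones. COL1A1 was its most abundant gene (2.43 FPKM in Non-target and 3.28 to 4.75 in the clones), while LUM, a matrix proteoglycan under the limit for a test, went the other way (0.714 FPKM in Non-target and 0.0134 to 0.281 in the clones), and COL1A2 had at most 1 and THY1 at most 3 fragments in any library.

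GFRA3 (ENSG00000146013) lies on the minus strand of chromosome 5 in GRCh38, at chr5:138252379-138274671. The region just before its start is shown beside that of RET (ENSG00000165731, plus strand, chr10:43077027-43130351), because the pair forms the artemin receptor and the RNA of both differed between groups. Both sequences were taken from RefSeq (GRCh38.p14), cover bases 250 to 51 before the RefSeq start and are written in the direction of the gene, with capitals for the GC box GGGCGG or its reverse complement CCGCCC.
GFRA3, chr5:138274672-138274871, minus strand: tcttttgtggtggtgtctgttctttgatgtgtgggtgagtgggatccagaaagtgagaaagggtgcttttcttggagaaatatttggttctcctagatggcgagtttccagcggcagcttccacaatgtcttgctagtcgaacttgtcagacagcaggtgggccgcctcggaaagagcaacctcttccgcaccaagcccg
RET, chr10:43076819-43077018, plus strand: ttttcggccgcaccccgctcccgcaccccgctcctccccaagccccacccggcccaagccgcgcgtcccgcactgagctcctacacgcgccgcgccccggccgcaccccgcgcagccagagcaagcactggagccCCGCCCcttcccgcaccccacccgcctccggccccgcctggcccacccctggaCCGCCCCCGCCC
The GFRA3 window held 7 CG dinucleotides, 51.5% G and C, and no GC box. The RET window held 25 CG dinucleotides, 80% G and C, and 3 GC boxes, of which the last pair abut. Neither held TATAAA or its reverse complement TTTATA. Of 35116 windows of the same length and place, 35.0% held a GC box on either strand and 7.63% held TATAAA or TTTATA, and the median count of CG was 8. A promoter entry was found for 8 of the 10 members, GFRA2 and NCAM1 being the exceptions.

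GFRA3 was close to the detection limit in Non-target cells and present in every clone. In the Non-target wells 1, 2 and 3 it stood at 0.0306, 0.0950 and 0.0559 FPKM, from 1, 3 and 2 fragments. In C9orf89-CKO cells the wells had 2.73, 2.80 and 4.002 FPKM, in MAGI2-CKO cells 0.556, 0.708 and 0.930, in MLPH-CKO cells 10.3, 10.4 and 12.3, and in RHBDD2-CKO cells 0.486, 0.434 and 0.543. No library of any group overlapped with a library of the next group in this order, from MLPH-CKO over C9orf89-CKO, MAGI2-CKO and RHBDD2-CKO to Non-target. The clone nearest to the control, RHBDD2-CKO, had 51 fragments over its 3 wells against 6 in Non-target.

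Taken as a ratio of depth-adjusted fragments, GFRA3 was 183.7-fold higher in MLPH-CKO than in Non-target cells (95% exact interval 84.2 to 501.6), 52.9-fold in C9orf89-CKO (24.05 to 145.2), 12.2-fold in MAGI2-CKO (5.39 to 34.2) and 8.12-fold in RHBDD2-CKO cells (3.49 to 23.2). These intervals pool the wells of a group, cover counting error only and are wide because 6 control fragments stand under each ratio. GFRA3 was chosen for its low Non-target level, so they describe the values and are no test of a difference. On the log2(FPKM + 0.1) scale, which understates the change of a gene this low, the same differences were 6.13, 4.35, 2.37 and 1.89. They depend on the pseudocount, being 3.50, 1.97, 0.70 and 0.49 with a pseudocount of 1 and 7.39, 5.58, 3.47 and 2.92 with one of 0.01. In these bulk samples, more cells with GFRA3 RNA and more GFRA3 RNA per cell cannot be told apart. The ribosomal pseudogene RPS27AP18 lies within GFRA3 on the same strand.

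The differences of GFRA3 between clones were tested, since the rule set the clones against Non-target and not against each other. The choice was not independent of the clone levels, as it required GFRA3 to be present there and earlier results of these data were known. GFRA3 also passed the limit for a test through 10 libraries, none of them Non-target. MLPH-CKO cells were higher than C9orf89-CKO cells by 1.78 on the log2 scale (SE 0.20, adjusted p = 0.000103, limma), higher than MAGI2-CKO cells by 3.76 (adjusted p = 7.66e-08, limma) and higher than RHBDD2-CKO cells, whose difference from MLPH-CKO was −4.24 (adjusted p = 1.10e-08, limma). C9orf89-CKO cells were in turn higher than the remaining clones, with log2 differences of −1.98 for MAGI2-CKO (adjusted p = 1.84e-05, limma) and −2.46 for RHBDD2-CKO (adjusted p = 1.66e-06, limma) against C9orf89-CKO. Between RHBDD2-CKO and MAGI2-CKO the difference of −0.48 did not pass (adjusted p = 0.0739, limma; 95% interval −0.92 to −0.04), although all 9 pairs of wells had the lower value in RHBDD2-CKO. It was −0.64 without MAGI2-CKO well 1, where it passed (adjusted p = 0.0300, limma), and −0.31 without MAGI2-CKO well 3 (0.275). With wells 2 and 3 alone, the 5 differences past the threshold stayed past it.

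**Figure D1:**
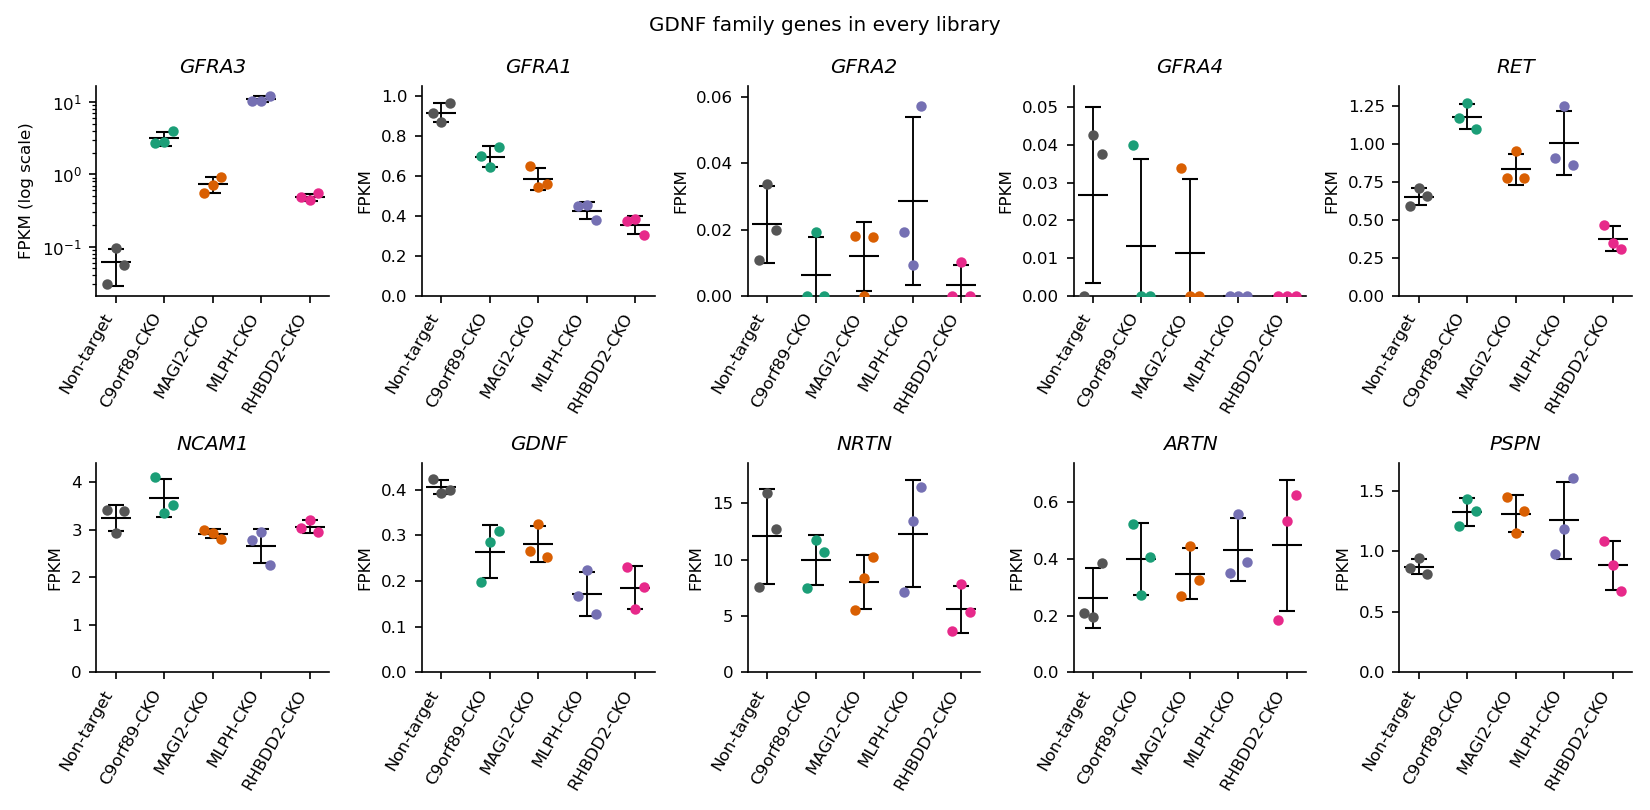
FPKM of the 10 GDNF family genes in each of the 15 libraries (points, wells 1 to 3 from left to right in each group), with the mean and SD of 3 wells (bars); the GFRA3 axis is logarithmic and the others start at 0, where some SD bars are cut off. GFRA3 runs from at most 0.0950 FPKM in Non-target to at least 10.3 in MLPH-CKO, while GFRA1 and GDNF have their highest libraries in Non-target.

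GFRA1, the receptor preferred by GDNF, was highest in Non-target cells, where GFRA3 was lowest, but RHBDD2-CKO cells had the lowest level of both among the clones (ENSG00000151892, minus strand, chr10:116056925-116273467). Its wells 1, 2 and 3 had 0.914, 0.868 and 0.966 FPKM in Non-target cells, 0.447, 0.455 and 0.378 in MLPH-CKO, 0.701, 0.643 and 0.744 in C9orf89-CKO cells, 0.649, 0.543 and 0.561 in MAGI2-CKO, and 0.375, 0.384 and 0.305 in RHBDD2-CKO cells. Every Non-target library was above every library of every clone. Against Non-target, GFRA1 fell in RHBDD2-CKO (log2 difference −1.16, SE 0.15, adjusted p = 7.99e-05, limma), MLPH-CKO (−0.95, adjusted p = 0.000444) and MAGI2-CKO cells (−0.57, adjusted p = 0.00969). In C9orf89-CKO cells the difference was −0.35 and did not pass (adjusted p = 0.105, limma; 95% interval −0.68 to −0.03), although it passed without the trend (0.0168) and with voom weights on the recovered fragments (0.0337). Among the clones, GFRA1 was lower in RHBDD2-CKO than in C9orf89-CKO (−0.81, adjusted p = 0.00127) and MAGI2-CKO cells (−0.59, adjusted p = 0.00665), and lower in MLPH-CKO than in C9orf89-CKO cells (−0.60, adjusted p = 0.0182). The call between MLPH-CKO and C9orf89-CKO was lost without C9orf89-CKO well 3 (adjusted p = 0.0685) or MLPH-CKO well 3 (adjusted p = 0.0707). With only the 6 libraries of both groups it stood at an adjusted p of 0.0807 and with wells 2 and 3 alone at 0.0803, and that of RHBDD2-CKO against MAGI2-CKO at 0.0649.

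GFRA2 and GFRA4, the receptors preferred by neurturin and persephin, were at or near 0 in every group. GFRA2 (ENSG00000168546) had 22 fragments over all 15 libraries and at most 6 in any library, with a highest level of 0.0573 FPKM. GFRA4 (ENSG00000125861, minus strand, chr20:3659292-3663399) had 4 fragments in all, at most 1 per library, and 0 in the MLPH-CKO and RHBDD2-CKO cells. A count of 0 allows up to 3 fragments, which for GFRA4 is 0.101 to 0.128 FPKM, depending on the library. Neither gene could be compared between groups at this depth.

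RET, the signalling receptor shared by all 4 ligands, was low throughout and moved in both directions. The wells 1, 2 and 3 had 0.595, 0.710 and 0.660 FPKM in Non-target cells, 0.911, 1.25 and 0.860 in MLPH-CKO, 1.17, 1.27 and 1.10 in C9orf89-CKO cells, 0.775, 0.955 and 0.778 in MAGI2-CKO, and 0.470, 0.350 and 0.311 in RHBDD2-CKO cells. All libraries of MLPH-CKO, C9orf89-CKO and MAGI2-CKO cells were above all Non-target libraries, and all RHBDD2-CKO libraries were below them. RET rose in C9orf89-CKO cells (log2 difference 0.76, SE 0.17, adjusted p = 0.00558, limma) and in MLPH-CKO cells (0.54, adjusted p = 0.0311), and fell in RHBDD2-CKO cells (−0.67, adjusted p = 0.00900). The difference of 0.31 in MAGI2-CKO cells did not pass (adjusted p = 0.189, limma; 95% interval −0.06 to 0.68). RET was lower in RHBDD2-CKO cells than in each other clone, by log2 differences of −1.44 against C9orf89-CKO (adjusted p = 4.13e-05), −0.98 against MAGI2-CKO (adjusted p = 0.000534) and −1.21 against MLPH-CKO cells (adjusted p = 0.000129). The rise in MLPH-CKO cells was lost without Non-target well 1 (adjusted p = 0.0903), Non-target well 3 (0.0699) or MLPH-CKO well 2 (0.139), with wells 2 and 3 alone (0.0902), with only the 6 libraries of both groups (0.0837), with no filter on low values (0.0655) and with quantile normalization (0.0914). The fall in RHBDD2-CKO cells was lost with only the 6 libraries (0.0506). No difference in RET among C9orf89-CKO, MLPH-CKO and MAGI2-CKO cells passed in the fit of all libraries. It was −0.23 in MLPH-CKO against C9orf89-CKO (adjusted p = 0.447, limma; 95% interval −0.60 to 0.15), 0.23 in MLPH-CKO against MAGI2-CKO (0.395; −0.14 to 0.60) and −0.46 in MAGI2-CKO against C9orf89-CKO cells (0.0751; −0.83 to −0.08). The last of these passed with quantile normalization (0.0440), without the trend (0.0456) and with voom weights (0.0266).

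**Figure D2:**
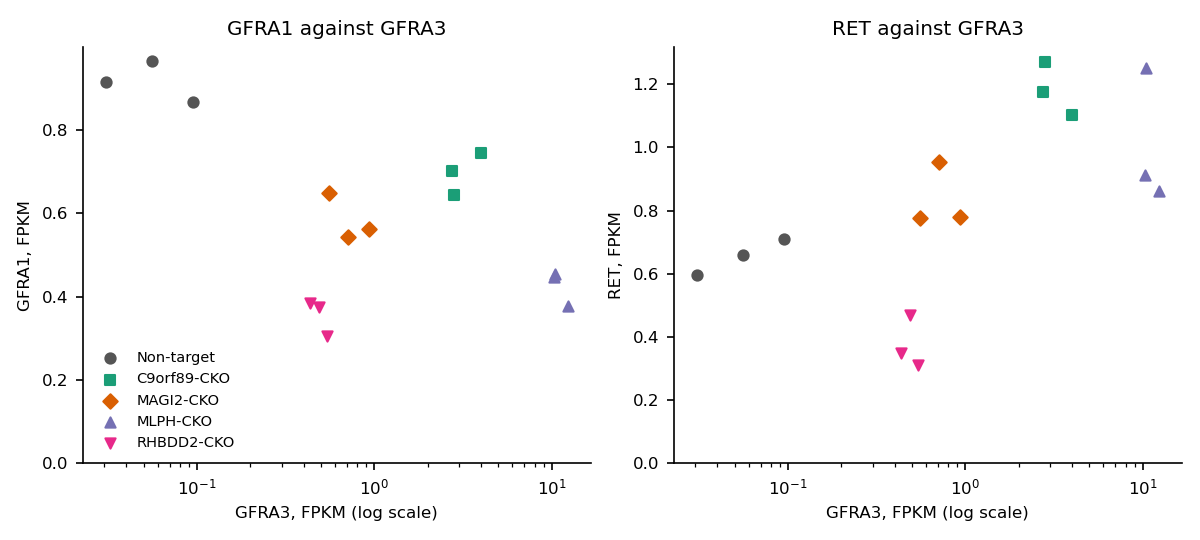
GFRA1 (left) and RET (right) against GFRA3 in each library, in FPKM with a logarithmic GFRA3 axis. GFRA1 is at least 0.868 FPKM in the Non-target libraries, where GFRA3 is at most 0.0950; RET is at most 0.470 FPKM in the RHBDD2-CKO libraries.

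NCAM1 (ENSG00000149294, plus strand, chr11:112961247-113278436) was among the better expressed members, with 528 to 864 fragments per library. Its level was 3.24 ± 0.271 FPKM (SD, n = 3) in Non-target cells, 2.66 ± 0.358 in MLPH-CKO, 3.66 ± 0.397 in C9orf89-CKO cells, 2.91 ± 0.0947 in MAGI2-CKO and 3.06 ± 0.129 in RHBDD2-CKO cells. No clone differed from Non-target past the threshold, and the largest difference was −0.28 in MLPH-CKO cells (adjusted p = 0.0627, limma; 95% interval −0.51 to −0.05). Leaving out Non-target well 2 (0.0419), C9orf89-CKO well 1 (0.0479) or MLPH-CKO well 2 (0.0404) brought that adjusted p under 0.05, whereas without MLPH-CKO well 3 the difference was −0.17 (0.252). Between clones, NCAM1 was lower than in C9orf89-CKO cells in MLPH-CKO (−0.45, adjusted p = 0.0129) and MAGI2-CKO cells (−0.31, adjusted p = 0.0485). The former was lost without C9orf89-CKO well 1 (adjusted p = 0.0507) or MLPH-CKO well 3 (0.0546), and the latter in 12 of the 15 fits that left out a library (adjusted p up to 0.157). With wells 2 and 3 alone they stood at 0.0747 and 0.191, and with only the 6 libraries of both groups at 0.101 and 0.07995. The difference in MAGI2-CKO cells also missed the threshold with no filter (0.0837), a pseudocount of 0.01 (0.0524), quantile normalization (0.0531) and no trend (0.0504). The gene overlaps NCAM1-AS1 on the other strand, and the kit is not stated to keep strand, so reads of the pair cannot be told apart.

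GDNF, the ligand of GFRα1, was highest in Non-target cells (ENSG00000168621, minus strand, chr5:37812677-37839686). Its wells 1, 2 and 3 had 0.423, 0.393 and 0.400 FPKM there, 0.167, 0.224 and 0.128 in MLPH-CKO, 0.198, 0.286 and 0.309 in C9orf89-CKO cells, 0.265, 0.326 and 0.252 in MAGI2-CKO, and 0.232, 0.138 and 0.187 in RHBDD2-CKO cells. No clone library reached the lowest Non-target library. The gene stayed under the limit of 0.5 FPKM in 3 libraries that a test required. Without that limit, its log2 differences from Non-target were −0.90 in MLPH-CKO (adjusted p = 0.0169, limma), −0.84 in RHBDD2-CKO (0.0238), −0.48 in C9orf89-CKO (0.225) and −0.41 in MAGI2-CKO cells (0.286). In the same order they were −0.26, −0.25, −0.15 and −0.13 with a pseudocount of 1, and −1.22, −1.11, −0.62 and −0.52 with one of 0.01. A library held 10 to 30 fragments of GDNF, and GDNF-AS1 overlaps it on the other strand.

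NRTN (ENSG00000171119, plus strand, chr19:5823802-5828324) was the most abundant member per length, at 9.59 FPKM over all libraries. The wells 1, 2 and 3 had 7.53, 15.9 and 12.7 FPKM in Non-target cells, 7.11, 13.4 and 16.4 in MLPH-CKO, 7.48, 11.7 and 10.7 in C9orf89-CKO cells, 5.53, 8.32 and 10.3 in MAGI2-CKO, and 3.67, 7.83 and 5.32 in RHBDD2-CKO cells. In each of the 5 groups well 1 was the lowest, at 0.478 to 0.669 times the mean of the other wells, and neighbouring groups overlapped. NRTN fell in RHBDD2-CKO against Non-target cells (log2 difference −1.09, SE 0.37, adjusted p = 0.0378, limma) and was lower there than in MLPH-CKO cells (−1.10, adjusted p = 0.0334). The difference between RHBDD2-CKO and MAGI2-CKO cells did not pass (−0.53, adjusted p = 0.277; 95% interval −1.34 to 0.27), with the lower value in RHBDD2-CKO in 8 of 9 pairs of wells. It passed with the well number as a block (adjusted p = 0.0131, limma), a pairing that the labels do not state. So did the differences of MAGI2-CKO from Non-target (0.0119) and of RHBDD2-CKO from C9orf89-CKO cells (0.00112). The fall against Non-target was lost without Non-target well 2 (adjusted p = 0.146), Non-target well 3 (0.103), RHBDD2-CKO well 1 (0.134) or RHBDD2-CKO well 3 (0.0846). The difference from MLPH-CKO was lost without MLPH-CKO well 2 (0.0988) or well 3 (0.130), or RHBDD2-CKO well 1 (0.128) or well 3 (0.0750). Both were lost with only the 6 libraries (0.0781 and 0.0835) and with no filter (0.0708 and 0.0648), and the fall against Non-target with voom weights (0.0524). With wells 2 and 3 of all groups alone, the spread was smaller, and both passed with differences of −1.13 (adjusted p = 0.00340) and −1.19 (adjusted p = 0.00266). In that fit NRTN was also lower in MAGI2-CKO than in Non-target cells (−0.62, adjusted p = 0.0413), lower in RHBDD2-CKO than in C9orf89-CKO cells (−0.78, adjusted p = 0.0192) and higher in MLPH-CKO than in MAGI2-CKO cells (0.68, adjusted p = 0.0433).

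ARTN, the preferred ligand of GFRα3, did not move with its receptor past the spread between wells (ENSG00000117407, plus strand, chr1:43933320-43937241). Its level was 0.264 ± 0.106 FPKM (SD, n = 3) in Non-target, 0.433 ± 0.111 in MLPH-CKO, 0.401 ± 0.126 in C9orf89-CKO cells, 0.348 ± 0.0892 in MAGI2-CKO and 0.448 ± 0.231 in RHBDD2-CKO cells, from 8 to 28 fragments per library. All groups overlapped. The log2 differences from Non-target lay between 0.32 and 0.57, with adjusted p from 0.272 to 0.539 (limma), and the 95% interval in MLPH-CKO cells ran from −0.22 to 1.36. Leaving out RHBDD2-CKO well 1, at 0.186 FPKM, gave a difference of 0.93 with an adjusted p of 0.0450 in that clone, while leaving out its well 3 gave 0.27 (0.660), against 0.52 with all libraries. The ARTN levels of MLPH-CKO and Non-target cells were not distinguishable beyond the spread between wells.

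PSPN (ENSG00000125650, minus strand, chr19:6375148-6379058) had 0.860, 0.941 and 0.816 FPKM in the Non-target wells 1, 2 and 3. It had 0.980, 1.18 and 1.60 in MLPH-CKO, 1.21, 1.43 and 1.33 in C9orf89-CKO cells, 1.45, 1.15 and 1.34 in MAGI2-CKO, and 1.08, 0.891 and 0.676 in RHBDD2-CKO cells. The MLPH-CKO, C9orf89-CKO and MAGI2-CKO libraries were all above the Non-target libraries, and those of RHBDD2-CKO overlapped with them. PSPN rose in C9orf89-CKO (log2 difference 0.55, SE 0.18, adjusted p = 0.0424, limma) and MAGI2-CKO cells (0.53, adjusted p = 0.0374). In MLPH-CKO cells the difference of 0.45 did not pass (adjusted p = 0.0804; 95% interval 0.06 to 0.85). It was lower in RHBDD2-CKO than in C9orf89-CKO (−0.55, adjusted p = 0.0377) and MAGI2-CKO cells (−0.54, adjusted p = 0.0321). These calls were close to the threshold. Leaving out a library lost the rise in C9orf89-CKO cells in 9 of 15 fits (adjusted p up to 0.124), the rise in MAGI2-CKO cells in 5 (up to 0.115), and the differences of RHBDD2-CKO from C9orf89-CKO and MAGI2-CKO in 4 each (up to 0.155 and 0.139). With wells 2 and 3 alone, both rises missed the threshold (0.0517 and 0.107) and the difference in MLPH-CKO cells passed it (0.0485). All 4 calls were lost with no filter (up to 0.0824), both rises with quantile normalization (0.0803 and 0.107), and both differences of RHBDD2-CKO with only the 6 libraries (0.0863 and 0.0741), that from C9orf89-CKO also with voom weights (0.0559). PSPN overlaps ALKBH7, which lies on the other strand.

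**Figure D3:**
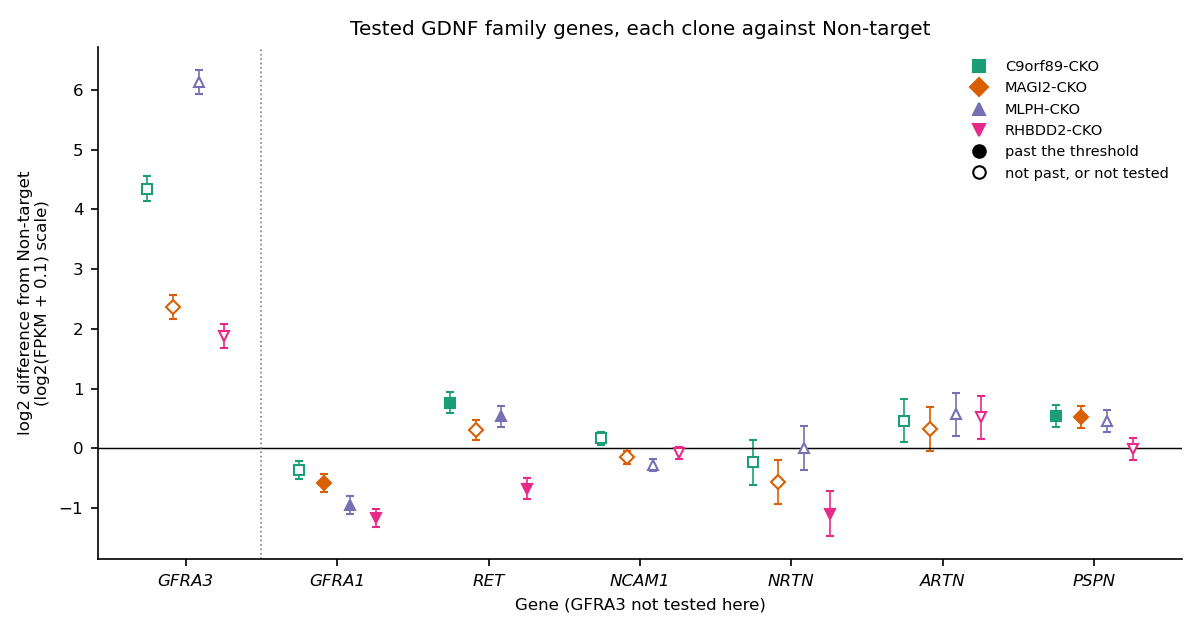
Log2 difference from Non-target on the log2(FPKM + 0.1) scale, with its SE, for the 7 members above the limit for a test in the 4 clones; filled symbols passed an adjusted p of 0.05, open symbols did not or, for GFRA3, were not tested. GFRA3 lies between 1.89 and 6.13, and the filled symbols of the other genes between −1.16 and 0.76.

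The family without GFRA3 was set against all genes tested. Of its 6 tested members, 2 passed in MLPH-CKO cells, where 30.1% of all 16175 genes did, 2 in C9orf89-CKO (26.0% of all genes), 2 in MAGI2-CKO (36.1%) and 3 in RHBDD2-CKO cells (34.1%). The median log2 difference of these 6 was 0.23, 0.32, 0.08 and −0.38 in MLPH-CKO, C9orf89-CKO, MAGI2-CKO and RHBDD2-CKO cells, against −0.01, −0.00, −0.00 and 0.00 over all genes tested. The 3 Non-target wells served in all 4 comparisons, which are therefore not independent. Between clones, GFRA3 included, 4 of 7 members passed in RHBDD2-CKO against C9orf89-CKO cells (29.3% of all genes), 3 in RHBDD2-CKO against MAGI2-CKO (41.6%) and 3 in RHBDD2-CKO against MLPH-CKO cells (37.0%), all lower in RHBDD2-CKO. MLPH-CKO against C9orf89-CKO gave 3 (14.2% of all genes), MAGI2-CKO against C9orf89-CKO gave 2 (22.5%) and MLPH-CKO against MAGI2-CKO gave 1 (21.2%).

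The genes around the receptors in this pathway were counted from 74 listed genes, of which 58 were above the limit for a test. In MLPH-CKO cells 12 rose and 18 fell (of all 16175 genes 2350 and 2515), in C9orf89-CKO 12 and 15 (2091 and 2119 of all genes), in MAGI2-CKO 10 and 19 (2747 and 3088), and in RHBDD2-CKO cells 20 and 17 (2813 and 2698). In total 51.7%, 46.6%, 50% and 63.8% of the 58 passed in these clones, in that order, and their median log2 differences were 0.02, 0.06, −0.06 and 0.10. Past the threshold in 1 direction in all 4 clones, which share the Non-target wells, were 3 higher and 5 lower genes, 13.8% of the 58, and 1076 of all genes tested (6.65%). The lists were chosen with earlier results of these data known and were not matched to all genes in expression level. These shares, and those of the single lists below, are therefore counts and no test of the pathway.

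Among adaptors and effectors that act on activated RET, 16 were tested. Of these, 5 rose and 5 fell in MLPH-CKO, 8 and 2 in C9orf89-CKO cells, 3 and 2 in MAGI2-CKO, and 7 and 6 in RHBDD2-CKO cells. These were 62.5%, 62.5%, 31.25% and 81.25% of the list, against 30.1%, 26.0%, 36.1% and 34.1% of all genes in the same clones. IRS1, a docking protein of insulin and RET signalling, rose in all 4 clones, from 1.08 ± 0.123 FPKM (SD, n = 3) in Non-target to 2.18 ± 0.0587 in MLPH-CKO, 2.12 ± 0.139 in C9orf89-CKO cells, 2.11 ± 0.339 in MAGI2-CKO and 1.43 ± 0.0381 in RHBDD2-CKO cells. The rise in RHBDD2-CKO cells (log2 difference 0.38, adjusted p = 0.0232, limma) was lost without Non-target well 1 (0.0566) or well 2 (0.0905) or RHBDD2-CKO well 2 (0.0654), and with wells 2 and 3 alone (0.05001), only the 6 libraries (0.0720) or quantile normalization (0.0613). IRS2, its relative, rose in MLPH-CKO, C9orf89-CKO and MAGI2-CKO cells, with log2 differences of 1.08, 0.78 and 0.89, and fell in RHBDD2-CKO cells (−0.76, adjusted p = 0.0246, limma). The IRS2 calls in C9orf89-CKO and RHBDD2-CKO cells were each lost when 1 of 3 single libraries was left out (adjusted p up to 0.0964 and 0.0930), the former also with no filter (0.0542) and the latter with only the 6 libraries (0.0975). Without RHBDD2-CKO well 1 the fall was −0.49. DOK1, another docking protein, likewise rose in MLPH-CKO, C9orf89-CKO and MAGI2-CKO cells (0.61, 0.44 and 0.30) and fell in RHBDD2-CKO cells, from 7.51 ± 0.501 to 2.89 ± 0.361 FPKM (−1.35, adjusted p = 2.37e-07, limma). Its rise in MAGI2-CKO cells was lost without Non-target well 3 (0.0672) or MAGI2-CKO well 3 (0.0638). STAT3 rose most in RHBDD2-CKO cells (0.74, adjusted p = 4.37e-06, limma), from 7.52 ± 0.534 to 12.6 ± 0.886 FPKM. GRB10, an adaptor that damps receptor signalling, fell in all 4 clones, most in MAGI2-CKO cells (−0.92, adjusted p = 1.24e-05, limma). Its fall in C9orf89-CKO cells (−0.28, adjusted p = 0.0491) was lost in 11 of 15 fits without 1 library (up to 0.185, with a difference of −0.18 without C9orf89-CKO well 1), and with no filter (0.0818), quantile normalization (0.0640), no trend (0.0635), only the 6 libraries (0.116) and voom weights (0.0912).

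Negative regulators of receptor tyrosine kinases made up 9 of the tested genes. Of these, 1 rose and 5 fell in MLPH-CKO, 1 and 3 in C9orf89-CKO cells, 0 and 6 in MAGI2-CKO, and 3 and 3 in RHBDD2-CKO cells, or 66.7%, 44.4%, 66.7% and 66.7% of the list (all genes 30.1%, 26.0%, 36.1% and 34.1%). LRIG1, a membrane protein that restrains growth factor receptors, fell in all 4 clones, from 10.1 ± 1.21 FPKM in Non-target to 7.87 ± 0.402 in MLPH-CKO, 6.46 ± 0.499 in C9orf89-CKO cells, 5.75 ± 0.454 in MAGI2-CKO and 8.06 ± 0.687 in RHBDD2-CKO cells. The call in MLPH-CKO cells was lost without Non-target well 3 (adjusted p = 0.0796) or MLPH-CKO well 1 (0.0534), and that in RHBDD2-CKO cells when any of 4 libraries was left out (up to 0.111) or with voom weights (0.0704). With only the 6 libraries both calls were lost (0.0583 and 0.0865). PTPRF, a receptor phosphatase, fell in all 4 clones, by 0.27 to 0.58 on the log2 scale, and the call in RHBDD2-CKO cells was lost when any of 4 libraries was left out (up to 0.119), with quantile normalization (−0.17, adjusted p = 0.144), with voom weights (0.105) and with no filter (0.0518). SPRED2, an inhibitor of the MAP kinase route, rose most in RHBDD2-CKO cells, from 3.10 ± 0.187 to 6.48 ± 0.709 FPKM (1.04, adjusted p = 9.47e-06, limma).

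Regulators of the GDNF and RET system in the embryonic kidney made up 14 tested genes, of which 4 rose and 5 fell in MLPH-CKO, 2 and 4 in C9orf89-CKO cells, 4 and 6 in MAGI2-CKO, and 4 and 4 in RHBDD2-CKO cells. Calls thus covered 64.3%, 42.9%, 71.4% and 57.1% of them, and 30.1%, 26.0%, 36.1% and 34.1% of all genes. GATA3, a transcription factor upstream of RET in the nephric duct, fell in all 4 clones, from 6.30 ± 0.402 FPKM in Non-target to between 3.31 in RHBDD2-CKO and 4.72 in MLPH-CKO cells. SIX2, a factor of nephron progenitors, rose in all 4 clones, from 22.996 ± 1.91 FPKM to between 28.0 and 34.7. Its calls in C9orf89-CKO and RHBDD2-CKO cells were lost without Non-target well 3 (adjusted p = 0.0565 and 0.0910), the latter also without RHBDD2-CKO well 1 (0.0578) or well 2 (0.0700), and both with only the 6 libraries (0.0549 and 0.0566). SLIT2, whose protein limits where GDNF is made, fell in MAGI2-CKO cells from 32.7 ± 1.24 to 16.2 ± 0.432 FPKM (−1.01, adjusted p = 9.20e-08, limma) and in MLPH-CKO cells to 17.8 ± 1.44 (−0.87, adjusted p = 4.52e-07).

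Genes known as targets of RET signalling in the ureteric bud, 8 of them tested, rose and fell in counts of 1 and 0 in MLPH-CKO, 0 and 3 in C9orf89-CKO cells, 2 and 2 in MAGI2-CKO, and 3 and 0 in RHBDD2-CKO cells. The shares called were 12.5%, 37.5%, 50% and 37.5%, beside 30.1%, 26.0%, 36.1% and 34.1% of all genes. CXCR4, a chemokine receptor, rose in MAGI2-CKO cells from 3.01 ± 0.747 to 35.3 ± 0.957 FPKM (log2 difference 3.53, SE 0.14, adjusted p = 4.57e-09, limma). It also rose in RHBDD2-CKO cells, to 4.26 FPKM (0.51, adjusted p = 0.0140), a call lost without Non-target well 2 (0.0642) and with only the 6 libraries of both groups (0.0817). It stood at 3.78 FPKM in MLPH-CKO and 3.31 in C9orf89-CKO cells, where it passed with wells 2 and 3 alone (0.0203 and 0.0386). MYB, a transcription factor, fell in MAGI2-CKO cells from 1.503 ± 0.125 to 0.503 ± 0.113 FPKM (−1.43, adjusted p = 6.52e-05). EGR1, an immediate early gene, fell in C9orf89-CKO cells from 22.1 ± 2.26 to 10.8 ± 1.42 FPKM (−1.03, adjusted p = 0.00808).

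Partners of NCAM1, 7 of them tested, rose and fell in counts of 1 and 2 in MLPH-CKO, 1 and 2 in C9orf89-CKO cells, 1 and 1 in MAGI2-CKO, and 2 and 3 in RHBDD2-CKO cells (42.9%, 42.9%, 28.6% and 71.4% of the list, with 30.1%, 26.0%, 36.1% and 34.1% of all genes). GAP43, a growth cone protein, fell from 2.31 ± 0.265 FPKM in Non-target to 0.258 ± 0.0997 in MLPH-CKO (−2.78, adjusted p = 2.73e-06, limma) and 0.590 ± 0.200 in RHBDD2-CKO cells (−1.84, adjusted p = 6.84e-05). ST8SIA4, which adds polysialic acid to NCAM, fell in C9orf89-CKO (−1.01, adjusted p = 0.00974) and MLPH-CKO cells (−1.10, adjusted p = 0.00489). The former call was lost with wells 2 and 3 alone (0.0788) and with only the 6 libraries of the pair of groups (0.0551). SPTBN1, a spectrin that links NCAM to the membrane skeleton, rose in all 4 clones by 0.24 to 0.41 on the log2 scale. Its calls in MAGI2-CKO and MLPH-CKO cells were lost without Non-target well 2 (adjusted p = 0.0577 and 0.0799), without MAGI2-CKO well 2 (0.0645), and without MLPH-CKO well 2 (0.0901) or well 3 (0.0596), respectively, and that in MLPH-CKO with only the 6 libraries (0.0684). Of related receptors and ligands, 4 were tested. Here 0 rose and 1 fell in MLPH-CKO, 0 and 1 in C9orf89-CKO cells, 0 and 2 in MAGI2-CKO, and 1 and 1 in RHBDD2-CKO cells. Calls covered 25%, 25%, 50% and 50% of this list, against 30.1%, 26.0%, 36.1% and 34.1% of all genes. SDC3, a heparan sulfate proteoglycan that binds GDNF, fell in all 4 clones, from 10.9 ± 0.781 FPKM to between 7.10 and 8.63.

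The 10 tested genes nearest to GFRA3, 5 on each side, moved in both directions. They start from 222.7 kb downstream of the GFRA3 start (FAM13B) to 190.8 kb upstream of it (EGR1). Of these, 2 rose and 3 fell in MLPH-CKO, 2 and 2 in C9orf89-CKO cells, 1 and 3 in MAGI2-CKO, and 2 and 2 in RHBDD2-CKO cells, where 30.1%, 26.0%, 36.1% and 34.1% of all genes passed, and their median log2 difference was −0.07, −0.11, −0.02 and 0.04 in the same order. REEP2, a protein of the endoplasmic reticulum whose gene starts 164.3 kb upstream, had the largest rise among them, from 14.9 ± 1.05 FPKM in Non-target to 27.4 ± 2.56 in MLPH-CKO cells (0.87, adjusted p = 2.57e-06, limma). It fell in RHBDD2-CKO cells to 9.82 ± 0.533 FPKM (−0.60, adjusted p = 4.96e-05). CDC23, a subunit of the anaphase promoting complex and the nearest tested gene downstream (61.3 kb), fell in MLPH-CKO cells (−0.50, adjusted p = 2.36e-05).

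Other genes followed a pattern over the libraries much like that of GFRA3. Over all 15 libraries, the highest Pearson correlations of log2(FPKM + 0.1) with GFRA3 belonged to HAGLR (r = 0.947), a long noncoding RNA of the HOXD locus, CAVIN1 (0.945), a coat protein of caveolae, C1QL1 (0.943), GPR176 (0.940) and RIPPLY3 (0.938). CAVIN1, for example, averaged 4.86 FPKM in Non-target, 15.96 in MLPH-CKO, 12.8 in C9orf89-CKO cells, 10.1 in MAGI2-CKO and 8.73 in RHBDD2-CKO cells. The most opposite patterns were those of MANBA (r = −0.942), a lysosomal mannosidase, FLRT3 (−0.937), an adhesion protein, and TAF5L (−0.933). These values describe 5 groups rather than 15 independent points, since wells of a group share their cells. Over the 12 libraries of the clones alone, other genes came first. These were RCN3 (r = 0.986), CALCB (0.972), PDLIM3 (0.967), CLIC1 (0.965) and LSR (0.963). The most opposite were BTBD7 (−0.965), ZHX3 (−0.962) and SLC6A15 (−0.962). CALCB, a calcitonin gene-related peptide of sensory neurons, averaged 2.70 FPKM in Non-target, 25.7 in MLPH-CKO, 10.5 in C9orf89-CKO cells, 4.16 in MAGI2-CKO and 1.90 in RHBDD2-CKO cells. Of the sensory neuron markers above, CALCA had at most 2 fragments in any library and ISL1 fell in C9orf89-CKO, MAGI2-CKO and RHBDD2-CKO cells. PRPH rose in every clone, and TRPV1 in all but RHBDD2-CKO cells. A link of CALCB or these markers with GFRA3 was not tested.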

How the data were processed

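RNA of 3 wells per group was extracted with a column kit and DNase I, and libraries were made with the NEBNext Ultra RNA kit. The authors deposited 1 table per library with values read here as FPKM, because each value times the merged exon length of its gene in GENCODE release 29 (GRCh38) came to whole fragments after division by a constant of its library, in 100% of values (tolerance 0.02). The submitters' processing notes name HISAT2 2.0.5, featureCounts 1.5.0-p3 and DESeq2. The genome build and annotation are not given in the sources used here. All 58735 identifiers matched that release.

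The test took the 16175 genes that reached 0.5 FPKM in 3 or more libraries. It was limma 3.58.1, run in R 4.3.3 on log2(FPKM + 0.1), with 1 fit of 15 libraries and 5 groups, moderated with a trend (prior degrees of freedom 2.62). P-values were two-sided and adjusted by the Benjamini-Hochberg method per comparison over all genes tested, with a threshold of 0.05. An exact permutation test of 3 against 3 wells cannot go below 0.1 and was not used. The recovered fragments gave depth, the floor of 3 fragments and exact 95% intervals, which cover counting error only. On simulated data with 16175 genes, 165 of 200 changed genes were recovered, with 12 unchanged genes called. The simulation gave every gene the same added spread and no well a shift of its own, whereas the wells numbered 1 stood apart here. Its rates therefore need not hold for the real libraries. Same-numbered wells were not taken as pairs.

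The members, pathway lists and markers were chosen with earlier results of these data known. Named genes were all members, the targeted genes, pathway genes past the threshold in 1 direction in all 4 clones, the 2 largest rises and falls per clone without overlap of libraries, the 5 tested genes on each side of GFRA3, the 5 genes most and 3 least like it, and leading or absent markers. Named beyond that rule, after their values were seen, were PRPH, TRPV1, LUM, NEFL, NEFM, S100B, MET, HOXA11 and FOS. Also beyond it were the genes ranked by likeness to GFRA3 over the clone libraries. The sensory neuron and Schwann cell lists each leave out 1 marker that is not reported here. Alternatives were other filters, pseudocounts, normalization, moderation and libraries, with wells 2 and 3 alone added after seeing the data. Tables and plots were made in Python 3.11.15 (pandas 2.3.3, scipy 1.17.1, matplotlib 3.10.9).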

Additional observations from a re-analysis of the deposited data

Results flagged for a closer look

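RET and 4 of the pathway genes described above moved in opposite directions in different clones. Each passed the threshold against Non-target and in the direct comparison of the clones (adjusted p from limma). Other tested pathway genes are not covered. For example, MET averaged 10.1 FPKM in Non-target, 5.14 in MAGI2-CKO and 13.1 in RHBDD2-CKO cells. RET fell in RHBDD2-CKO cells (log2 difference from Non-target −0.67) and rose in C9orf89-CKO cells (0.76), a difference of −1.44 (adjusted p = 4.13e-05). IRS2 fell in RHBDD2-CKO (−0.76) and rose in MLPH-CKO cells (1.08), a difference of −1.84 (adjusted p = 6.02e-05). DOK1 fell in RHBDD2-CKO (−1.35) and rose in MLPH-CKO cells (0.61), a difference of −1.96 (adjusted p = 5.42e-09). MYB was higher in RHBDD2-CKO (0.54) and lower in MAGI2-CKO cells (−1.43), a difference of 1.97 (adjusted p = 3.24e-06). SLIT2 was likewise higher in RHBDD2-CKO (0.19) and lower in MAGI2-CKO cells (−1.01), a difference of 1.20 (adjusted p = 1.32e-08). The calls of IRS2, MYB and SLIT2 in RHBDD2-CKO against Non-target cells were each lost without some single libraries (adjusted p up to 0.0930, 0.109 and 0.0957), and without RHBDD2-CKO well 1 the IRS2 difference shrank to −0.49. With only the 6 libraries of both groups, RET (0.0506) and IRS2 (0.0975) lost that call. MYB lost it with wells 2 and 3 alone (0.0697), no filter (0.0742), a pseudocount of 0.01 (0.0518) and quantile normalization (0.0563). RHBDD2-CKO cells were on 1 side of all 5 differences, but other genes lay apart between other clones. HOXA11, a tested pathway gene, averaged 12.7 FPKM in Non-target, 21.1 in C9orf89-CKO and 9.36 in MAGI2-CKO cells. FOS averaged 6.96, 3.59 and 12.2 FPKM in the same order. The cause was not tested.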

How the results depend on the processing

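No call past the threshold, and no described difference of GFRA3 or GDNF from Non-target, changed direction under any alternative. Differences that did not pass could change sign. NRTN in MLPH-CKO against Non-target cells, for example, ran from −0.29 to 0.36 in the fits without 1 library. The GFRA3 differences between clones that passed the threshold did so in all 10 other settings and all 15 fits without 1 library, and the falls of CARD19 and RHBDD2 in their own clones also held (−0.67 to −0.46 and −1.56 to −1.32 on the log2 scale without 1 library). Counts of members past the threshold are small and moved with the settings. With no filter on low values, C9orf89-CKO and MAGI2-CKO against Non-target and MAGI2-CKO against C9orf89-CKO each had 1 in place of 2. With a mean of at least 1 FPKM, which left 3 members to test against Non-target and 4 between clones, the count was 0 in MLPH-CKO, 1 in C9orf89-CKO cells, 1 in MAGI2-CKO and 1 in RHBDD2-CKO cells against Non-target, 2 in RHBDD2-CKO against C9orf89-CKO and 1 in RHBDD2-CKO against MAGI2-CKO cells. Quantile normalization gave 1 in C9orf89-CKO and 1 in MAGI2-CKO cells against Non-target, and a pseudocount of 0.01 gave 1 in MAGI2-CKO against C9orf89-CKO cells. With only the 6 libraries of the compared groups, the count was 1 in MLPH-CKO and 1 in RHBDD2-CKO against Non-target, and 1 in MAGI2-CKO and 1 in MLPH-CKO against C9orf89-CKO cells, pathway genes in C9orf89-CKO cells fell from 27 to 16, and all genes in MLPH-CKO against C9orf89-CKO cells from 2303 to 1275. MLPH-CKO against MAGI2-CKO had 2 members in place of 1 without the trend, with voom weights on the recovered fragments, and with wells 2 and 3 alone, where C9orf89-CKO against Non-target and MAGI2-CKO and MLPH-CKO against C9orf89-CKO each had 1.

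Leaving out 1 library at a time gave 1 to 3 members past the threshold in MLPH-CKO, 1 to 2 in C9orf89-CKO cells, 1 to 2 in MAGI2-CKO and 2 to 3 in RHBDD2-CKO cells against Non-target. Between clones it gave 1 to 2 in MAGI2-CKO and 1 to 3 in MLPH-CKO against C9orf89-CKO, 1 in MLPH-CKO against MAGI2-CKO, and 3 to 4, 2 to 3 and 2 to 4 in RHBDD2-CKO against C9orf89-CKO, MAGI2-CKO and MLPH-CKO cells. Pathway genes past the threshold ran from 23 to 31 in MLPH-CKO, 18 to 28 in C9orf89-CKO cells, 26 to 32 in MAGI2-CKO and 23 to 37 in RHBDD2-CKO cells. Among single members, the fits without 1 library lost 49 calls, gained 8 and left 993 results as they were, and for single pathway genes they lost 56, gained 8 and left 1016. The described differences of GFRA3 from Non-target moved by more than the spread between wells in 16 cases, under both other pseudocounts, quantile normalization and voom in each clone, and those of GDNF in 7, under the other pseudocounts. GFRA1 in MLPH-CKO against MAGI2-CKO cells passed without the trend (0.0137) and with voom (0.0305), NCAM1 in MLPH-CKO against Non-target with quantile normalization (0.0460), and PSPN in RHBDD2-CKO against MLPH-CKO cells with wells 2 and 3 alone (0.0190). Of the 5 genes most like GFRA3, 0 were among the 5 most alike over the 12 clone libraries and 1 by Spearman correlation. The cause of these changes was not tested where the number of genes or libraries does not give it.

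The labels give same-numbered wells only a number. The correlation of their deviations from the group means had a median of 0.0856 and exceeded 0.1 in 12 of 30 pairs, against a median of −0.0887 and 2 of 60 for wells of different numbers, and 11 of 15 libraries correlated best with their own number, which is a hint of pairing from the data and not from the design. With the replicate number as a block, members past the threshold were 2 in place of 1 in MLPH-CKO against MAGI2-CKO and 5 in place of 3 in RHBDD2-CKO against MAGI2-CKO cells, the GFRA3 difference between the latter passed (adjusted p = 0.0293), NRTN passed in MAGI2-CKO against Non-target (0.0119), RHBDD2-CKO against C9orf89-CKO (0.00112), RHBDD2-CKO against MAGI2-CKO (0.0131) and MLPH-CKO against MAGI2-CKO cells (0.0164), NCAM1 passed in MLPH-CKO against Non-target cells (0.0440), and all genes in MLPH-CKO against C9orf89-CKO cells rose to 3640. GFRA2 and GFRA4 could not be compared at this depth.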
